A study of Homo sapiens with 36 samples.

Results

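The genes of mitosis and of the G2/M transition were followed in A549 cells exposed to cigarette smoke extract (CSE). The list held 46 genes, listed by their role in cell division. Each gene was read from the transcript cluster that carried its symbol alone. Where several did, as for BIRC5, the brightest over the 36 arrays was taken. This gave a value for 45 of the 46 genes among 18417 genes that could be named. CENPA, the histone variant of centromeres, shared its transcript cluster with SLC35F6 and has no value here.

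A cell that has copied its DNA passes through G2 and enters mitosis when cyclin B and CDK1 become active. Kinases such as PLK1 and the Auroras then build the spindle, kinetochore proteins and kinesins attach and move the chromosomes, and a checkpoint holds the cell until all of them are attached. The anaphase-promoting complex (APC/C) ends the arrest by marking securin and cyclin B for destruction, and the cell is cut apart by the cytokinesis proteins. Transcripts of these genes are made mainly in G2 and M. In resting cells the DREAM complex holds the genes silent through the cell cycle genes homology region (CHR) of their promoters, and in dividing cells MYBL2 (B-MYB) and FOXM1 act through the same element, while NF-Y binds CCAAT boxes nearby. The level in a culture therefore depends in part on the share of dividing cells, and these genes are widely read as markers of proliferation in lung tumours and in cell lines.

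A549 is a line from a human lung adenocarcinoma that is used as a model of alveolar epithelium. The cells were left unexposed (control) or were kept in CSE 1%, CSE 5% or CSE 10% for 1, 3 or 5 weeks, with 3 arrays for each of the 12 groups. Every culture had been without serum before the start and was then grown in medium with 1% fetal bovine serum. The extract, smoke bubbled through medium and filtered, was renewed daily, and cells kept for 3 or 5 weeks were re-plated every week, so time in culture and re-plating cannot be told apart. The model is 1 tumour line in low serum, not primary epithelium. The submitters call the replicates biological, and the study calls them individual experiments. The control arrays at 5 weeks have conflicting labels, since their titles and short codes say 5 weeks while the descriptions, and the source names of replicates 1 and 2, say 3 weeks. They are taken as 5-week controls by their titles, and the counts and medians of the members at 5 weeks are given with other control arrays as well.

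The values are log2 levels after robust multi-array averaging (RMA), which gives the probe intensities of all arrays 1 distribution. The 5-week controls stood apart: the standard deviation over the transcript clusters of an array was 2.15 to 2.21 on them, against 2.25 to 2.31 on the others, and their scores on the first principal component were -110.7, -74.6 and -74.6, against -61.2 to 47.1. The markers of simple epithelium KRT8, KRT18, CDH1 and EPCAM were bright, at the 99.7, 99.6, 95.3 and 89.9 percentiles of all transcript clusters. Of the alveolar type II markers, ABCA3 lay at the 76.5 and SFTPD at the 56.7 percentile, while SFTPB, SFTPC, LAMP3, NAPSA and SLC34A2 lay between the 29 and 42.2 percentiles, so the surfactant genes SFTPB and SFTPC were not bright. Of the 6 fibroblast markers, LUM, DCN and PDGFRA lay at the 8.58, 8.94 and 22.4 percentiles and COL1A2, COL3A1 and COL1A1 at the 45.8, 46.8 and 64. Of the leukocyte markers, PTPRC, CD3E and CD14 lay at the 8.7, 26.2 and 45.8 percentiles and CD68, a macrophage marker, at the 91. The endothelial markers PECAM1, VWF and CDH5 lay at the 21.5, 29.9 and 33.5 percentiles. A transcript cluster is called higher or lower below where the adjusted p of limma was under 0.05 over all 33297 transcript clusters. The thresholds of the study methods, a log2 fold change beyond 1 with B above 0, are given as a second count.

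The promoters are shown first because the members share a sequence feature that the rule for the list did not use. RefSeq promoters (GRCh38.p14, from 250 bases before to 50 bases after the start of the gene) were at hand for 38 of the 46 genes. The CHR, searched as TTTGAA on both strands, was in 27 of the 38 promoters (71.1%), against 15.4% of all 27305 promoters of this length. A CCAAT box, the letters bound by NF-Y, was in 29 (76.3%) against 35.7%. Both were in 57.9% of the members and in 6.08% of all promoters. Among 26 promoters of DNA replication and G1/S genes, 1 (3.85%) held the CHR letters and 57.7% a CCAAT box. A match says only that the letters are in the window. The lack of a match says only that these exact letters are not in it. The 130 bases before the start are printed for 4 members that were lower with CSE 10% than in the 5-week controls (PRC1, CCNB2, PLK1 and CDCA8). They are also printed for 2 that were higher there (KIF11 and ASPM). The 4 were lower against the controls of weeks 1 and 3 as well, but KIF11 (0.19) and ASPM (0.44) were not called against these. Against the 3-week controls KIF11 was lower (-0.86) and ASPM was not called (-0.62). Each is given 5′ to 3′ on the strand of its gene, with capitals for TTTGAA or its reverse TTCAAA and for CCAAT or its reverse ATTGG.
PRC1, chr15:90994536-90994665, minus strand: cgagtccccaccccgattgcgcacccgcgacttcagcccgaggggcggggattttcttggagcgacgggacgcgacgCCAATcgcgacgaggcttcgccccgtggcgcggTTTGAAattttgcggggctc
CCNB2, chr15:59105016-59105145, plus strand: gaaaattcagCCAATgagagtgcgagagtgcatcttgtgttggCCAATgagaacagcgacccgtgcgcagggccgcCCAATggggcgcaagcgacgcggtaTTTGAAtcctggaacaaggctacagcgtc
PLK1, chr16:23678759-23678888, plus strand: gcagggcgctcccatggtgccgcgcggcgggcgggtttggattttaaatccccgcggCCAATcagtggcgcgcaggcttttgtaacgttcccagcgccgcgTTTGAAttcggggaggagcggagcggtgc
CDCA8, chr1:37692386-37692515, plus strand: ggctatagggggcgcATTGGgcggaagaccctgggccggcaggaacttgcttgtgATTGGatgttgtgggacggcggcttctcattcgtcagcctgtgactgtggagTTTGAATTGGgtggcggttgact
KIF11, chr10:92593000-92593129, plus strand: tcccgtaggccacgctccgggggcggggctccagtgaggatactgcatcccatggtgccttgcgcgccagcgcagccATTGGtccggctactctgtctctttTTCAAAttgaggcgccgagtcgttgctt
ASPM, chr1:197146670-197146799, minus strand: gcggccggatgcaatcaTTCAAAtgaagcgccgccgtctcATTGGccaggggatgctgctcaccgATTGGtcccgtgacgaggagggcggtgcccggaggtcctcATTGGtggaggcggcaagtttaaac
In PRC1, CCNB2 and PLK1 the CHR lay close to the start as TTTGAA, with a CCAAT box or more before it. In CDCA8 the CHR ran into an ATTGG, so that the capitals there mark an overlap of both. KIF11 and ASPM had the reverse letters of both motifs. Other members that were higher with CSE 10% at 5 weeks held the CHR as TTTGAA, namely CENPF, ECT2, HMMR, KIF18A and NUF2. TOP2A held both forms and KIF14 the reverse. Whether the strand of the letters goes with the response was not tested. All 6 printed promoters hold the CHR letters, which not all members lower with CSE 10% at 5 weeks did. Among members with a promoter and a value, 8 with the letters and 6 without them were lower than the 5-week controls. Those higher were 9 and 0. Whether the letters go with the response was not tested either.

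**Figure D1:**
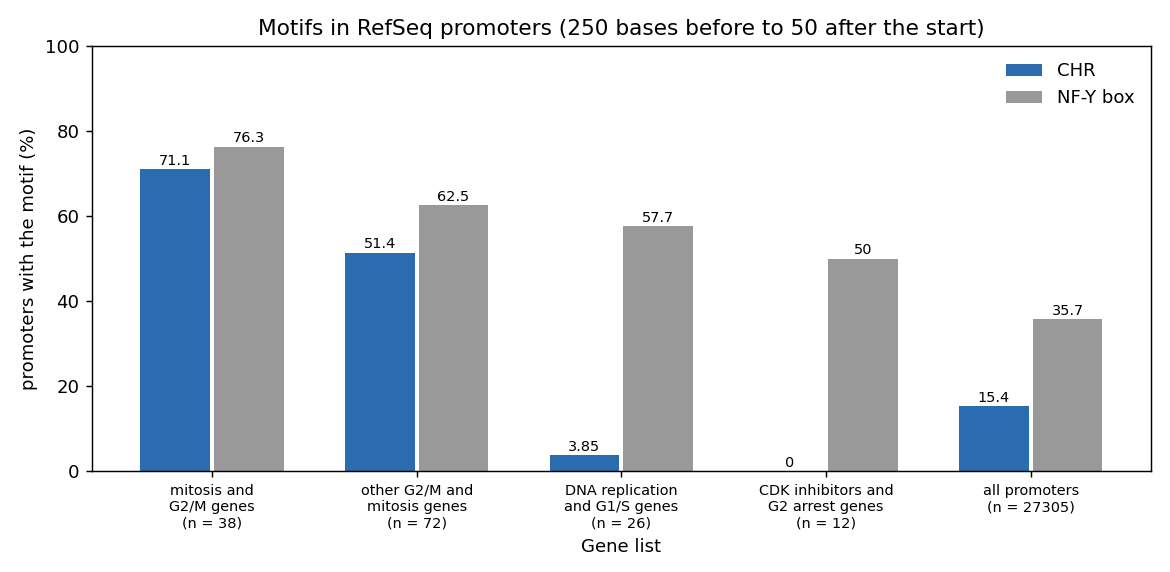
Bars give the percent of RefSeq promoters that hold the CHR (TTTGAA) or an NF-Y box (CCAAT) on either strand, for 5 lists with the number of promoters under each; the axis starts at 0. The CHR was in 71.1% of the mitosis and G2/M promoters, 51.4% of those of other mitosis genes, 3.85% of those of G1/S genes and 15.4% of all.

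Over the 12 groups the members were highest in unexposed cells at 3 weeks and lowest in cells exposed to CSE 5% or 10% for 1 week. Their mean log2 level at 1 week was 7.36 ± 0.077 in the controls, 8.12 ± 0.082 with CSE 1%, 6.73 ± 0.19 with CSE 5% and 6.74 ± 0.034 with CSE 10% (SD, n = 3 arrays in each). It was 8.97 ± 0.14, 8.50 ± 0.17, 8.23 ± 0.047 and 7.82 ± 0.057 in the same order at 3 weeks. At 5 weeks it was 8.19 ± 0.15, 8.71 ± 0.29, 8.58 ± 0.067 and 8.08 ± 0.15. The control of 3 weeks had the highest mean of the 12 groups for 38 of the 45 genes, against 5.35% of all transcript clusters. The lowest mean was in CSE 5% at 1 week for 25 genes, in CSE 10% at 1 week for 19, and in the 5-week control for ECT2. MKI67, which codes for the proliferation antigen Ki-67, had the widest span, from 6.87 with CSE 10% at 1 week to 10.42 in the 3-week control (11.8-fold). It was followed by CDK1 (9.63-fold), PBK (9.55-fold) and MELK (8.25-fold), and ECT2 had the narrowest span (2.37-fold). The genes moved together over the 36 arrays, with a median Pearson r of 0.87 over 990 pairs, as a description of arrays that share their groups. For the deviations from the group means the median r was 0.28, with pairs from -0.78 to 0.98. In bulk RNA, fewer cells in G2 and M and less of each transcript per such cell cannot be told apart.

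**Figure D2:**
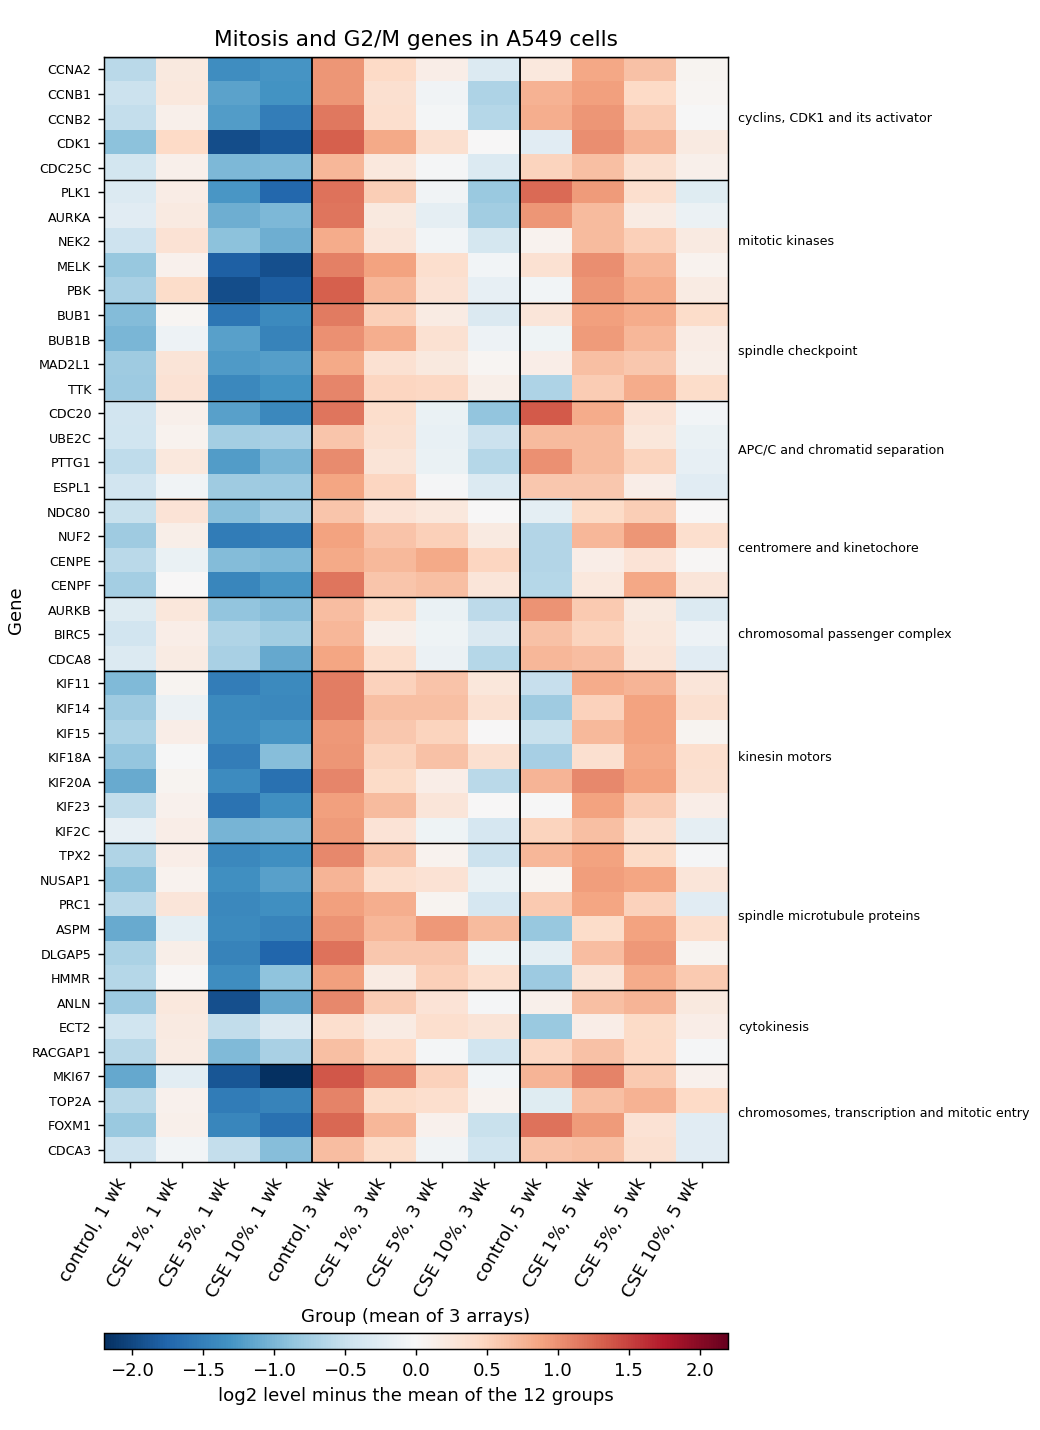
Each row is 1 of the 45 genes, ordered by role, and each column 1 of the 12 groups (mean of 3 arrays); colour gives the log2 level minus the gene's mean over the groups, from blue (lower) to red (higher). The columns of CSE 5% and CSE 10% at 1 week are blue for all genes, and the 3-week control is red throughout; the 5-week control is red for PLK1, CDC20 and FOXM1 and blue for KIF14, ASPM and HMMR.

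After 1 week, the weakest extract and the stronger ones moved the genes in opposite directions. With CSE 1%, 35 of the 45 members were higher than in the control and 0 lower, where 3.41% of all transcript clusters were higher and 1.9% lower. All 45 log2 fold changes were positive, from 0.33 to 1.34 with a median of 0.80, against -0.020 over all named genes, and 0 were lower at an unadjusted p under 0.05. With CSE 5%, 27 members were lower and 0 higher (4.84% and 5.99% of all), with a median of -0.67, and 0 were higher without adjustment. With CSE 10%, 26 were lower and 0 higher (8.44% and 8.27% of all), with a median of -0.60; ECT2 had the sole positive value, 0.12 (SE 0.23), and 0 were higher without adjustment. There were 20 members, among them CCNB1, CDK1, AURKA, CDC20, FOXM1 and MKI67, that were higher with CSE 1% and lower with both stronger extracts. The share of all transcript clusters with these calls was not counted. The arrays of CSE 1% lay above those of the control without overlap in 43 members (10.9% of all), and those of CSE 5% and CSE 10% lay below them in 34 and 33 (15.5% and 17.5% of all). The order CSE 1% above control above both CSE 5% and CSE 10% held for the group means of 44 of 45 members and for 8.5% of all transcript clusters.

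PRC1, which bundles microtubules between the separating chromosomes, was among the leading genes at 1 week with every concentration. With CSE 1% the smallest p were those of PRC1 (0.86, SE 0.082, adjusted p = 2.67e-08), RACGAP1 (0.80, SE 0.077, adjusted p = 3.15e-08) and KIF20A (1.18, SE 0.13, adjusted p = 3.8e-07). With CSE 5% PRC1 (-0.81, SE 0.082, adjusted p = 2.11e-08), AURKA (-0.82, SE 0.11, adjusted p = 3.97e-06) and TPX2 (-0.77, SE 0.11, adjusted p = 6.91e-06) led. With CSE 10% PLK1 (-1.44, SE 0.14, adjusted p = 7.1e-09), PRC1 (-0.76, SE 0.082, adjusted p = 4.7e-08) and CCNB2 (-1.0, SE 0.11, adjusted p = 5.63e-08) did. The thresholds of the study methods were passed upward with CSE 1% by 7 members (0.243% of all): CDK1 (1.34), PBK (1.11), BUB1 (1.01), MAD2L1 (1.06), KIF11 (1.03), KIF20A (1.18) and ANLN (1.04). They were passed downward with CSE 5% by 4 (0.484% of all), CDK1 (-1.05), PBK (-1.24), KIF23 (-1.09) and ANLN (-1.13), and this count was 1 without CSE 5% replicate 2, 7 without its replicate 1 and 2 without control replicate 1. With CSE 10% they were passed downward by 5 (0.829% of all), CCNB2 (-1.0), PLK1 (-1.44), MELK (-1.11), PBK (-1.11) and MKI67 (-1.06). The 7 with CSE 1% became 4 when control replicate 2 or 3, or CSE 1% replicate 1, was left out.

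After 3 weeks all 3 concentrations lay below the control, in the order of the dose. With CSE 1%, 20 members were lower and 0 higher (5.81% and 5.67% of all transcript clusters), with a median log2 fold change of -0.49. With CSE 5%, 32 were lower and 0 higher (9.93% and 9.7% of all), with a median of -0.76. With CSE 10%, 37 were lower and 0 higher (12.5% and 14% of all), with a median of -1.13, and 0 were higher at an unadjusted p under 0.05 with any of the concentrations. ECT2 with CSE 5% (0.0095, SE 0.23) had the sole positive value of the 3 comparisons. The medians over all named genes were -0.0094, -0.050 and 0.0031. Arrays lay below the control without overlap in 24, 38 and 41 members with CSE 1%, CSE 5% and CSE 10% (11.9%, 20.5% and 19.4% of all). The group means fell in the order control, CSE 1%, CSE 5%, CSE 10% in 36 of 45 members, against 10.2% of all transcript clusters. The 20 members that were lower with every concentration included CCNB1, CCNB2, PLK1, AURKA, CDC20, PTTG1, BUB1, FOXM1 and TOP2A. How many of all transcript clusters were lower with every concentration was not counted. There were 8 members with no call at 3 weeks: ASPM, CENPE, CENPF, ECT2, HMMR, KIF14, KIF18A and NUF2.

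At 3 weeks AURKA and CCNB2 led with every concentration. AURKA fell with CSE 1% (-0.95, SE 0.11, adjusted p = 4.1e-07), with CSE 5% (-1.37, SE 0.11, adjusted p = 1.94e-10) and with CSE 10% (-1.93, SE 0.11, adjusted p = 1.36e-13). CCNB2 followed with CSE 1% (-0.78, SE 0.11, adjusted p = 7.46e-06), CSE 5% (-1.20, SE 0.11, adjusted p = 2.02e-09) and CSE 10% (-1.77, SE 0.11, adjusted p = 6.19e-13). Next came BIRC5 with CSE 1% (-0.59, SE 0.086, adjusted p = 1.23e-05), and PRC1 with CSE 5% (-0.83, SE 0.082, adjusted p = 9.41e-09) and CSE 10% (-1.26, SE 0.082, adjusted p = 1.69e-12). No member passed the thresholds of the study methods with CSE 1% (0.291% of all were lower by them), and 1 did without CSE 1% replicate 3. With CSE 5%, 8 did (0.544% of all): CCNB1 (-1.05), CCNB2, PLK1 (-1.27), AURKA, CDC20 (-1.33), PTTG1 (-1.19), KIF2C (-1.05) and FOXM1 (-1.18). With CSE 10%, 30 did, where 1.06% of all transcript clusters did, and the largest were CDC20 (-2.05), PLK1 (-2.02), AURKA, CCNB2 and FOXM1 (-1.75).

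After 5 weeks the genes no longer moved as 1 block against their own control. With CSE 1%, 28 members were higher and 4 lower (20.3% and 33.5% of all transcript clusters), with a median of 0.61. With CSE 5%, 25 were higher and 13 lower (23% and 40.3% of all), with a median of 0.43. With CSE 10%, 10 were higher and 20 lower, with a median of -0.025. These counts were close to the shares of all transcript clusters (21.9% and 39.6%). The medians over all named genes were -0.11, -0.14 and -0.16. The median with CSE 1% was 0.35 without CSE 1% replicate 3 and 0.39 without control replicate 1. The median with CSE 10% lay on either side of 0 as single arrays were left out, from -0.17 without control replicate 1 to 0.049 without CSE 10% replicate 2. The 10 members higher with every concentration were ASPM, CENPF, ECT2, HMMR, KIF11, KIF14, KIF18A, NUF2, TOP2A and TTK. With CSE 1% the SD of their 3 arrays lay between 0.51 (TOP2A) and 1.13 (CENPF). The SE and p come from a variance shared by the 12 groups and do not measure the spread of this group. None of these 10 passed with CSE 10% against the controls of weeks 1 and 3, where their values lay between 0.051 (CENPF) and 0.45 (HMMR). With those controls KIF11 and NUF2 passed with CSE 1%, and ASPM, KIF11, NUF2, TOP2A and TTK passed with CSE 5%. The share of all transcript clusters called in the same direction with every concentration was not counted. The 4 members lower with every concentration were AURKA, AURKB, CDC20 and PTTG1. Against the controls of weeks 1 and 3, their values with CSE 1% were 0.24, 0.38, 0.44 and 0.45, and AURKB, CDC20 and PTTG1 passed upward. KIF20A, MKI67, PRC1 and RACGAP1 were higher with CSE 1% and lower with CSE 10%. With CSE 10% against the controls of weeks 1 and 3, PRC1 was lower (-0.40) and KIF20A was higher (0.38). MKI67 (-0.025) and RACGAP1 (-0.046) did not pass there. Cyclic loess in place of the deposited scaling moved the median of all transcript clusters by 0.12, 0.14 and 0.14 here, and the members' medians became 0.56, 0.42 and -0.016.

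With CSE 1% at 5 weeks the smallest p upward were those of NUSAP1 (0.89, SE 0.14, adjusted p = 2.09e-05), BUB1B (1.03, SE 0.17, adjusted p = 2.39e-05) and KIF11 (1.32, SE 0.23, adjusted p = 5.11e-05), and downward those of CDC20 (-0.53, SE 0.16, adjusted p = 0.00681), AURKB (-0.40, SE 0.14, adjusted p = 0.021) and PTTG1 (-0.31, SE 0.12, adjusted p = 0.0355). With CSE 5% they were NUF2 (1.61, SE 0.27, adjusted p = 1.39e-05), NUSAP1 (0.83, SE 0.14, adjusted p = 1.98e-05) and KIF15 (1.38, SE 0.25, adjusted p = 3.45e-05) upward, and FOXM1 (-0.87, SE 0.12, adjusted p = 8.94e-07), AURKA (-0.80, SE 0.11, adjusted p = 1.23e-06) and CDC20 (-1.03, SE 0.16, adjusted p = 4.71e-06) downward. With CSE 10% they were ECT2 (0.96, SE 0.23, adjusted p = 0.000755), HMMR (1.39, SE 0.34, adjusted p = 0.000941) and TTK (1.07, SE 0.28, adjusted p = 0.00199) upward, and FOXM1 (-1.44, SE 0.12, adjusted p = 1.37e-10), PLK1 (-1.52, SE 0.14, adjusted p = 1.25e-09) and PRC1 (-0.84, SE 0.082, adjusted p = 3.24e-09) downward.

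By the thresholds of the study methods, 7 members were higher with CSE 1% at 5 weeks (3.22% of all): CDK1 (1.28), PBK (1.03), BUB1B, TTK (1.23), NUF2 (1.37), KIF11 and KIF15 (1.21). With CSE 5%, 12 were higher (7.14% of all): CDK1 (1.01), TTK (1.48), NUF2, KIF11 (1.26), KIF14 (1.66), KIF15, KIF18A (1.58), ASPM (1.72), DLGAP5 (1.16), HMMR (1.62), ECT2 (1.25) and TOP2A (1.03). CDC20 alone was lower by them (2.02% of all). With CSE 10%, 6 were lower (2.06% of all): PLK1, AURKA (-1.10), CDC20 (-1.40), PTTG1 (-1.18), AURKB (-1.28) and FOXM1. Without control replicate 1 of 5 weeks, the total past these thresholds was 2 with CSE 1%, 3 in place of 13 with CSE 5%, and the median with CSE 5% was 0.23. Without CSE 1% replicate 1, the total with CSE 1% was 16, and without its replicates 2 and 3 it was 4 and 2. Without CSE 5% replicate 1 it was 7 with CSE 5%, and without its replicate 3 it was 8. The 4 members lower with CSE 1% became 1 without control replicate 1 and 2 without any 1 of control replicates 2 and 3 or CSE 1% replicates 2 and 3.

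**Figure D3:**
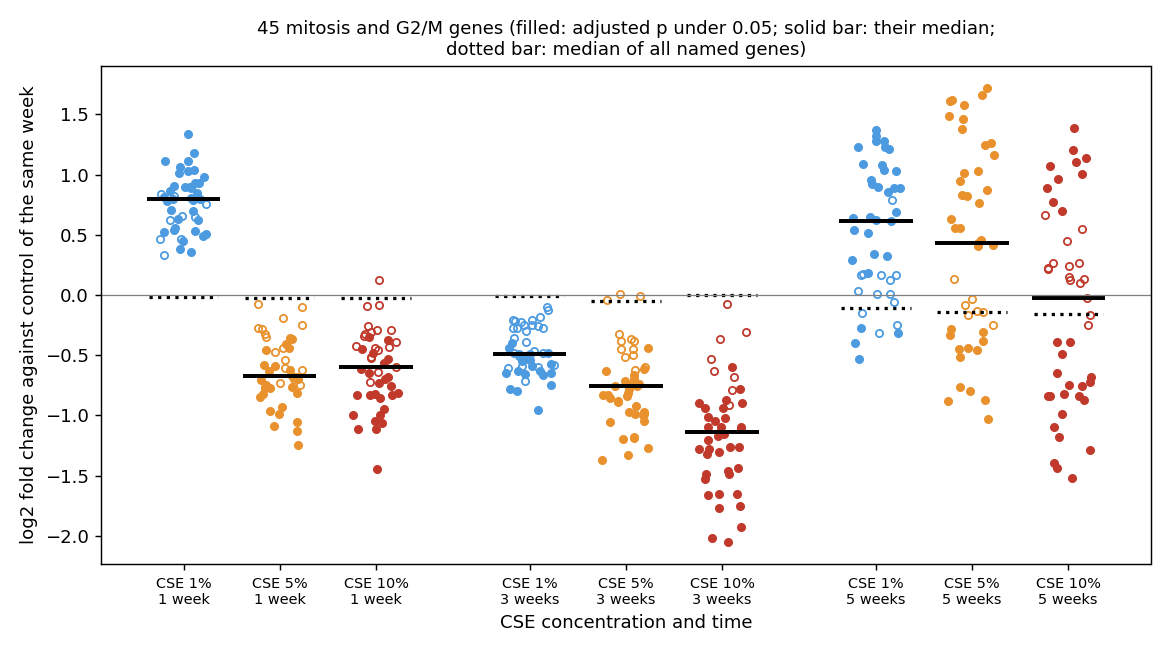
Each point is 1 of the 45 genes in 1 of the 9 comparisons with the control of the same week; the axis is the log2 fold change, filled points have an adjusted p under 0.05, the solid bar is the members' median and the dotted bar the median of all named genes. The medians run from 0.80 with CSE 1% at 1 week to -1.13 with CSE 10% at 3 weeks, and at 5 weeks the points lie on both sides of 0.

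The 5-week comparisons depended on which control arrays were used. Against the control arrays of 3 weeks, 0 members were higher and 1 lower with CSE 1% (4.84% and 4.58% of all transcript clusters), 0 and 19 with CSE 5% (9.34% and 9.5%), and 0 and 36 with CSE 10% (11.5% and 13%). The medians were then -0.24, -0.35 and -0.86. Against the control arrays of 1 week, 41, 44 and 34 were higher (9.78%, 14.4% and 15% of all) and 0 lower (8.8%, 14.1% and 15.8% of all), with medians of 1.37, 1.14 and 0.67. Against the controls of weeks 1 and 3 together, 30 were higher and 0 lower with CSE 1% (7.86% and 7.43% of all), 22 and 1 with CSE 5% (13.1% and 13%), and 2 and 13 with CSE 10% (15% and 16%). That comparison uses the mean of the control groups of weeks 1 and 3, which differed from each other in every member. Its SE does not include the difference between them. FOXM1 with CSE 10% had a log2 fold change of -1.44 against its own week, -1.52 against 3 weeks, -0.47 against weeks 1 and 3, and 0.57 against 1 week. For KIF14 with CSE 10% the values were 1.14 against its own week, -0.76 against 3 weeks, 0.19 against weeks 1 and 3, and 1.14 against 1 week. The order of the 3 medians, CSE 1% above CSE 5% above CSE 10%, was the same with each set of control arrays, which shifts the 3 comparisons together.

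**Figure D4:**
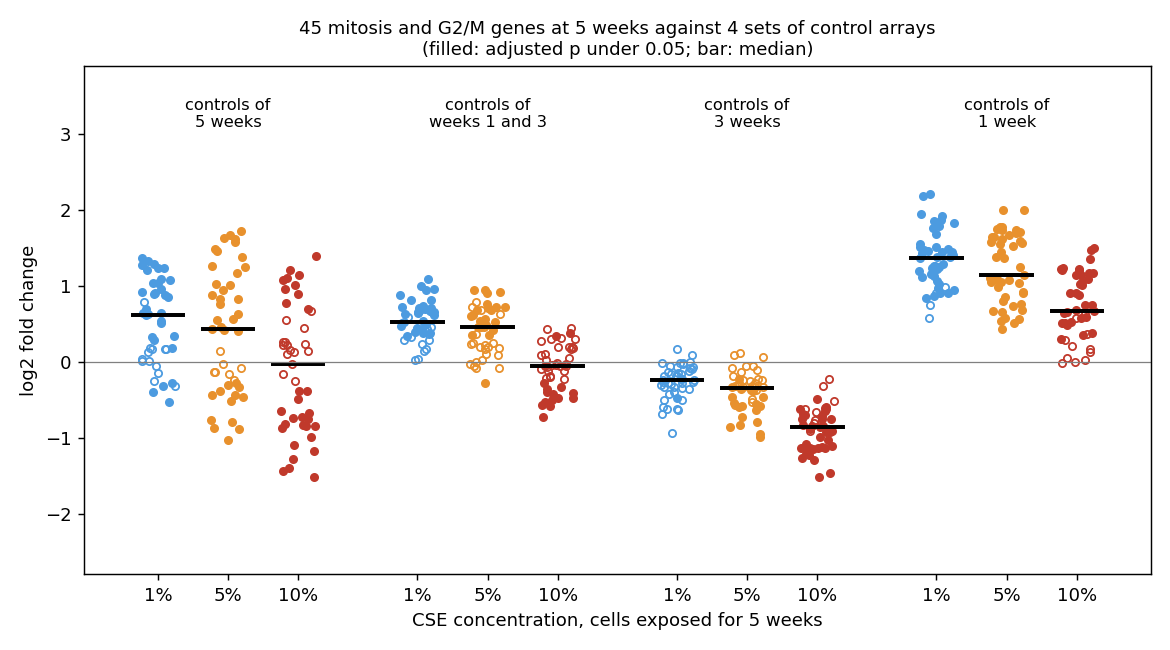
Points are the log2 fold changes of the 45 genes after 5 weeks of CSE 1%, 5% or 10% against the control arrays of 5 weeks, of weeks 1 and 3, of 3 weeks and of 1 week; filled points have an adjusted p under 0.05 and bars are medians. The spread of the points is widest against the 5-week controls, and the median of CSE 5% is 0.43, 0.46, -0.35 and 1.14 in the 4 sets.

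The unexposed cultures differed among themselves by more than most exposed groups did from their control. All 45 members were higher in the 3-week than in the 1-week controls (6.23% of all transcript clusters), with a median log2 difference of 1.61, and 0 were lower (5.27% of all), also without adjustment. MKI67 (2.50, SE 0.12, adjusted p = 2.54e-14) and PRC1 (1.50, SE 0.082, adjusted p = 1.26e-13) led. From 3 to 5 weeks, 33 members were lower and 0 higher (21.8% and 31.7% of all), with a median of -0.74; 1 was higher at an unadjusted p under 0.05. PBK (-1.37, SE 0.19, adjusted p = 3.44e-06) and KIF11 (-1.63, SE 0.23, adjusted p = 3.98e-06) led downward, and AURKB (0.30, SE 0.14) and CDC20 (0.17, SE 0.16) had positive values that did not pass. Against 1 week, 31 members were higher at 5 weeks and 0 lower (28.2% and 18.4% of all), with 0 lower without adjustment. FOXM1 (2.01, SE 0.12, adjusted p = 1.12e-12) and MKI67 (1.87, SE 0.12, adjusted p = 5.53e-12) led, while ECT2 (-0.39, SE 0.23) and HMMR (-0.18, SE 0.34) did not pass.

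The 5-week control enters both the change in unexposed cells and the effect of CSE at 5 weeks, so those values share arrays and are set side by side. The genes in this paragraph were chosen after their values were seen. In the unexposed cells from 3 to 5 weeks, KIF14 changed by -1.90, ASPM by -1.83, CENPF by -1.80, TTK by -1.74 and HMMR by -1.71. With CSE 5% against the 5-week control the values of those genes were 1.66, 1.72, 1.46, 1.48 and 1.62. For PLK1, FOXM1, PTTG1, UBE2C and CDC20 the difference between 5-week and 3-week controls was 0.045, -0.079, -0.035, 0.085 and 0.17, and none of these passed. Their values with CSE 5% against the 5-week control were -0.88, -0.87, -0.52, -0.44 and -1.03, and all of these passed. Members with the CHR letters in the promoter window had a median of 0.83 with CSE 5% at 5 weeks (n = 26 genes). Those without a match had 0.14 (n = 11), as a description of these genes. At 3 weeks with CSE 10% the same medians were -0.98 and -1.27. In the unexposed cells from 3 to 5 weeks they were -1.02 and -0.46. At 1 week they were 0.81 and 0.78 with CSE 1%, -0.69 and -0.63 with CSE 5%, and -0.56 and -0.61 with CSE 10%.

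The shares of all transcript clusters called in each comparison with a control are given above and stand beside the counts by role. At 5 weeks 20.3% to 23% of all were higher and 33.5% to 40.3% lower. Calls by role at 5 weeks use the 5-week controls unless others are named. No member was higher at 5 weeks with any concentration against the 3-week controls alone. The B-type cyclins and CDK1 form the kinase that drives entry into mitosis, CCNA2 acts with it from S phase on, and CDC25C removes the phosphates that keep CDK1 inactive. All 5 genes were higher with CSE 1% at 1 week, all 5 were lower with both stronger extracts at 1 week, and all 5 were lower with CSE 5% and CSE 10% at 3 weeks. CCNB2 led the group. Its log2 level at 1 week was 8.62, 8.75 and 8.74 in the controls, 9.43, 9.29 and 9.26 with CSE 1%, 8.33, 7.85 and 7.81 with CSE 5% and 7.72, 7.84 and 7.55 with CSE 10%. At 3 weeks it was 10.37, 10.26 and 10.51 in the controls, 9.58, 9.54 and 9.67 with CSE 1%, 9.10, 9.26 and 9.20 with CSE 5% and 8.57, 8.57 and 8.69 with CSE 10%. At 5 weeks it was 9.83, 10.09 and 10.17 in the controls, 10.16, 10.21 and 10.20 with CSE 1%, 9.86, 9.72 and 9.78 with CSE 5% and 9.18, 9.06 and 9.39 with CSE 10%. The 4 groups did not overlap at 3 weeks, and at 5 weeks the CSE 10% arrays lay below all others while those of CSE 1% and CSE 5% overlapped with the controls. The fold change with CSE 10% was -1.0 (SE 0.11) at 1 week, -1.77 (SE 0.11) at 3 weeks and -0.82 (SE 0.11) at 5 weeks. CDK1 was higher with CSE 1% and CSE 5% at 5 weeks (1.28 and 1.01), as was CCNA2 (0.61 and 0.41), while CCNB1 was 0.13 and did not pass with CSE 1% and fell with CSE 5% (-0.33). With CSE 10% CCNB1 (-0.72), CCNB2 and CDC25C (-0.39) were lower and CDK1 (0.44) and CCNA2 (-0.17) did not pass. CCNB2 was also lower against the controls of weeks 1 and 3 (-0.33), and CCNB1 (-0.20) and CDC25C (-0.052) did not pass.

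Among the mitotic kinases, PLK1 and AURKA mature the centrosomes and build the spindle, NEK2 separates the centrosomes, and MELK and PBK are kinases of dividing cells. All 5 were lower with CSE 5% and CSE 10% at 1 and 3 weeks. AURKA, the leader, read 8.45, 8.45 and 8.54 in the 1-week controls, 8.95, 8.94 and 8.90 with CSE 1%, 7.81, 7.50 and 7.66 with CSE 5% and 7.91, 7.66 and 7.66 with CSE 10%. The 3-week arrays read 9.89, 9.90 and 9.92 in the controls, 8.82, 8.80 and 9.23 with CSE 1%, 8.30, 8.73 and 8.58 with CSE 5% and 7.84, 7.91 and 8.17 with CSE 10%. The 5-week arrays read 9.67, 9.72 and 9.73 in the controls, 9.44, 9.51 and 9.33 with CSE 1%, 8.83, 8.91 and 8.98 with CSE 5% and 8.53, 8.50 and 8.79 with CSE 10%. At 3 and 5 weeks every exposed array of AURKA lay below every control array of its week, and the fold change with CSE 10% was -1.93 (SE 0.11) and -1.10 (SE 0.11). PLK1 fell with CSE 10% as well, with -1.44, -2.02 and -1.52 at 1, 3 and 5 weeks. With CSE 1% at 5 weeks its arrays overlapped with the controls and its value did not pass (-0.32). MELK, PBK and NEK2 rose at 5 weeks with CSE 1% by 0.69, 1.03 and 0.62 and with CSE 5% by 0.41, 0.88 and 0.46, and with CSE 10% their values were -0.25, 0.24 and 0.12 and did not pass.

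The spindle checkpoint genes BUB1, BUB1B (BUBR1), MAD2L1 (MAD2) and TTK (MPS1) hold anaphase until the kinetochores are attached. All 4 were higher with CSE 1% at 1 week, and all 4 were lower with CSE 10% at 3 weeks. BUB1 led with 7.20, 7.10 and 7.17 in the 1-week controls, 8.29, 8.16 and 8.05 with CSE 1%, 6.83, 6.26 and 6.49 with CSE 5% and 6.73, 6.75 and 6.66 with CSE 10%. In the 3-week groups it had 9.28, 9.16 and 9.35 in the controls, 8.64, 8.69 and 8.58 with CSE 1%, 8.29, 8.28 and 8.29 with CSE 5% and 7.78, 7.85 and 7.79 with CSE 10%. In the 5-week groups it had 7.75, 8.70 and 8.68 in the controls, 8.77, 9.11 and 9.18 with CSE 1%, 8.96, 8.85 and 8.99 with CSE 5% and 8.43, 8.45 and 8.66 with CSE 10%. The 4 groups of 3 weeks did not overlap, and control replicate 1 of 5 weeks lay well below the other 2. BUB1 changed by -1.46 (SE 0.16) with CSE 10% at 3 weeks. At 5 weeks all 4 genes were higher with CSE 1% and with CSE 5%, and TTK was higher with CSE 10% as well (1.07), while BUB1 (0.14), BUB1B (0.26) and MAD2L1 (-0.025) did not pass there. All 4 also passed with CSE 5% against the controls of weeks 1 and 3. None of them passed with CSE 5% against the 3-week controls alone (-0.33, -0.28, -0.24 and -0.25). With the controls of weeks 1 and 3, BUB1, BUB1B and MAD2L1 passed with CSE 1%, and TTK did not with CSE 1% (0.43) or CSE 10% (0.27).

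CDC20 activates the APC/C, UBE2C passes ubiquitin to its targets, PTTG1 is securin, and ESPL1 is separase, the protease that securin holds in check and that opens the cohesin ring. All 4 were higher with CSE 1% at 1 week, and at 5 weeks all 4 were lower with CSE 5% and with CSE 10%. PTTG1, which led, measured 6.60, 6.54 and 7.06 in the 1-week controls, 7.54, 7.57 and 7.48 with CSE 1%, 6.15, 5.74 and 6.29 with CSE 5% and 6.04, 6.41 and 6.39 with CSE 10%. The values at 3 weeks were 8.29, 8.34 and 8.36 in the controls, 7.58, 7.59 and 7.58 with CSE 1%, 7.06, 7.13 and 7.24 with CSE 5% and 6.56, 6.61 and 6.83 with CSE 10%. Those at 5 weeks were 8.28, 8.29 and 8.31 in the controls, 7.90, 7.89 and 8.16 with CSE 1%, 7.89, 7.70 and 7.74 with CSE 5% and 7.03, 7.04 and 7.27 with CSE 10%. The controls of 3 and of 5 weeks lay above every exposed array of their week. CDC20 fell by 0.53, 1.03 and 1.40 on the log2 scale with CSE 1%, CSE 5% and CSE 10% at 5 weeks. UBE2C (0.0046) and ESPL1 (0.012) did not pass with CSE 1%, and were -0.84 and -0.84 with CSE 10%. None of the 4 was called with CSE 5% at 5 weeks against the controls of weeks 1 and 3, and 3 were lower with CSE 10%.

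NDC80 and NUF2 are subunits of the complex that grips microtubule ends, CENPE is a kinetochore motor, and CENPF is a large kinetochore protein. This role had the fewest calls against control before 5 weeks. None of the 4 was called with CSE 5% or CSE 10% at 1 week, and 1, NDC80, with CSE 10% at 3 weeks (-0.60, SE 0.15). NDC80 had 5.86, 5.68 and 5.67 in the 1-week controls, 6.57, 6.52 and 6.50 with CSE 1%, 5.49, 5.13 and 5.27 with CSE 5% and 5.42, 5.46 and 5.42 with CSE 10%. At 3 weeks it had 6.86, 6.57 and 7.05 in the controls, 6.89, 6.42 and 6.27 with CSE 1%, 6.48, 6.37 and 6.49 with CSE 5% and 6.26, 6.19 and 6.23 with CSE 10%. At 5 weeks it had 6.06, 5.97 and 5.98 in the controls, 6.27, 6.73 and 6.94 with CSE 1%, 7.07, 6.67 and 6.56 with CSE 5% and 6.26, 6.05 and 6.36 with CSE 10%. The 5-week controls lay below every array of CSE 1% and CSE 5% of that week. All 4 were higher with CSE 5% at 5 weeks: NDC80 by 0.77, NUF2 by 1.61, CENPE by 0.95 and CENPF by 1.46. CENPE had the widest error of the 4 there (SE 0.39). NDC80 and NUF2 also passed with CSE 5% against the controls of weeks 1 and 3, and CENPE (0.19) and CENPF (0.63) did not.

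AURKB, BIRC5 (survivin) and CDCA8 (borealin) form the chromosomal passenger complex with INCENP, which corrects wrong attachments and later acts in cytokinesis. All 3 were higher with CSE 1% at 1 week, lower with CSE 10% at 1, 3 and 5 weeks, and lower with CSE 5% at 3 and 5 weeks. CDCA8 stood at 7.45, 7.56 and 7.63 in the 1-week controls, 8.02, 8.16 and 7.92 with CSE 1%, 7.17, 7.27 and 6.98 with CSE 5% and 6.87, 6.71 and 6.59 with CSE 10%. Its values of 3 weeks were 8.80, 8.79 and 8.54 in the controls, 8.10, 8.17 and 8.41 with CSE 1%, 7.60, 7.79 and 7.74 with CSE 5% and 7.19, 7.18 and 7.29 with CSE 10%. Its values of 5 weeks were 8.46, 8.72 and 8.57 in the controls, 8.70, 8.43 and 8.44 with CSE 1%, 7.98, 8.24 and 8.15 with CSE 5% and 7.58, 7.46 and 7.74 with CSE 10%. CSE 1% overlapped with the control at 5 weeks, and CSE 5% and CSE 10% did not. The fold changes with CSE 10% were -0.82 (SE 0.11), -1.49 (SE 0.11) and -0.99 (SE 0.11) at 1, 3 and 5 weeks for CDCA8. AURKB had -0.64, -1.26 and -1.28, and BIRC5 -0.35, -1.05 and -0.76. None of the 3 genes was called with CSE 5% at 5 weeks against the controls of weeks 1 and 3, and all 3 were lower with CSE 10%. A dimmer second transcript cluster of BIRC5, not used elsewhere, did not pass with CSE 1% at 1 week (0.31) and was lower with CSE 1% at 5 weeks (-0.38), where the brighter one did not pass (-0.15).

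Of the kinesins, KIF11 and KIF15 push the spindle poles apart, KIF18A aligns the chromosomes, KIF2C takes microtubules apart, and KIF14, KIF20A and KIF23 work at the midzone in cytokinesis. At 1 week with CSE 1%, 4 of 7 were higher, and at 3 weeks with CSE 10%, 5 of 7 were lower. KIF20A lay at 7.26, 7.36 and 7.37 in the 1-week controls, 8.51, 8.68 and 8.34 with CSE 1%, 7.33, 6.75 and 7.10 with CSE 5% and 6.96, 6.59 and 6.86 with CSE 10%. The 3-week values were 9.56, 9.53 and 9.46 in the controls, 8.67, 8.83 and 9.11 with CSE 1%, 8.48, 8.65 and 8.66 with CSE 5% and 7.76, 7.95 and 7.88 with CSE 10%. The 5-week values were 8.93, 9.33 and 9.32 in the controls, 9.47, 9.53 and 9.53 with CSE 1%, 9.41, 9.24 and 9.33 with CSE 5% and 8.71, 8.69 and 9.01 with CSE 10%. KIF20A rose with CSE 1% at 1 week with no overlap (1.18, SE 0.13) and fell most with CSE 10% at 3 weeks (-1.65, SE 0.13). At 5 weeks 6 of the 7 were higher with CSE 1% and 5 with CSE 5% (20.3% and 23% of all transcript clusters). KIF11, KIF14 and KIF18A were higher with CSE 10% too, by 0.78, 1.14 and 1.11, while KIF2C (-0.68) and KIF20A (-0.39) were lower. KIF15 (0.55) and KIF23 (0.15) did not pass. With CSE 1%, KIF14 (0.33), KIF15 (0.59) and KIF18A (0.28) did not pass against the controls of weeks 1 and 3, and KIF11, KIF20A and KIF23 did. Of the 5 with CSE 5%, KIF11 and KIF15 passed against those controls, and KIF14, KIF18A and KIF23 did not. KIF11, KIF14 and KIF18A did not pass with CSE 10% against them, while KIF2C was lower (-0.57) and KIF20A higher (0.38).

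TPX2 targets AURKA to the spindle, PRC1 bundles the microtubules of the midzone, and NUSAP1, ASPM, DLGAP5 (HURP) and HMMR bind spindle microtubules or poles. PRC1, the leader, was called in 7 of the 9 comparisons with a control, and not with CSE 1% at 3 weeks or CSE 5% at 5 weeks. It had 8.49, 8.43 and 8.55 in the 1-week controls, 9.38, 9.39 and 9.29 with CSE 1%, 7.69, 7.61 and 7.73 with CSE 5% and 7.81, 7.78 and 7.60 with CSE 10%. Of 3 weeks the values were 10.07, 9.89 and 10.00 in the controls, 9.85, 9.83 and 9.97 with CSE 1%, 9.14, 9.17 and 9.16 with CSE 5% and 8.70, 8.65 and 8.82 with CSE 10%. Of 5 weeks they were 9.55, 9.76 and 9.71 in the controls, 9.83, 10.04 and 10.02 with CSE 1%, 9.69, 9.53 and 9.56 with CSE 5% and 8.75, 8.74 and 9.03 with CSE 10%. The CSE 1% arrays lay above the controls at 1 and 5 weeks and overlapped with them at 3 weeks. TPX2 fell with CSE 10% at 1, 3 and 5 weeks, by 0.68, 1.53 and 0.75 on the log2 scale. ASPM and HMMR were called in none of the 6 comparisons of 1 and 3 weeks and were higher in all 3 of 5 weeks, with 1.72 and 1.62 with CSE 5%. NUSAP1 and DLGAP5 were higher with CSE 1% (0.89 and 0.89) and CSE 5% (0.83 and 1.16) at 5 weeks. TPX2 did not pass with CSE 10% at 5 weeks against the controls of weeks 1 and 3 (-0.22).

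ANLN (anillin), ECT2 and RACGAP1 act at the cleavage furrow, where ECT2 switches on RhoA and RACGAP1 anchors it. RACGAP1 and ANLN were higher with CSE 1% at 1 week and lower with CSE 5% and CSE 10% at 3 weeks, and ECT2 was called in none of the 6 comparisons of 1 and 3 weeks. RACGAP1 showed 8.21, 8.26 and 8.57 in the 1-week controls, 9.14, 9.21 and 9.09 with CSE 1%, 8.09, 7.88 and 8.02 with CSE 5% and 8.27, 8.32 and 8.18 with CSE 10%. It showed 9.63, 9.54 and 9.70 in the controls, 9.43, 9.39 and 9.38 with CSE 1%, 8.85, 9.01 and 8.93 with CSE 5% and 8.57, 8.52 and 8.49 with CSE 10% at 3 weeks. It showed 9.39, 9.45 and 9.45 in the controls, 9.56, 9.59 and 9.68 with CSE 1%, 9.43, 9.33 and 9.43 with CSE 5% and 8.92, 8.88 and 9.02 with CSE 10% at 5 weeks. The 4 groups of 3 weeks did not overlap, and at 5 weeks CSE 10% lay below and CSE 1% above all controls (-0.49 and 0.18). ECT2 was higher at 5 weeks with CSE 1% (0.96), CSE 5% (1.25) and CSE 10% (0.96). ANLN was 0.54 and 0.63 with CSE 1% and CSE 5% and did not pass with CSE 10% (0.10). RACGAP1 did not pass with CSE 10% at 5 weeks against the controls of weeks 1 and 3 (-0.046).

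The last role holds FOXM1, the transcription factor of G2/M genes, with TOP2A, which untangles DNA, MKI67, which coats mitotic chromosomes, and CDCA3, a trigger of mitotic entry. All 4 were higher with CSE 1% at 1 week, lower with CSE 10% at 1 and 3 weeks and lower with CSE 5% at 3 weeks. FOXM1 gave 7.61, 7.74 and 7.96 in the 1-week controls, 8.58, 8.83 and 8.69 with CSE 1%, 7.24, 7.02 and 7.19 with CSE 5% and 6.96, 6.91 and 6.96 with CSE 10%. For 3 weeks it gave 9.88, 10.06 and 9.64 in the controls, 9.17, 9.25 and 9.54 with CSE 1%, 8.58, 8.75 and 8.70 with CSE 5% and 8.18, 8.07 and 8.06 with CSE 10%. For 5 weeks it gave 9.86, 9.77 and 9.71 in the controls, 9.81, 9.53 and 9.24 with CSE 1%, 8.99, 8.85 and 8.88 with CSE 5% and 8.24, 8.34 and 8.45 with CSE 10%. The 4 groups did not overlap at 1 week or at 3 weeks, and at 5 weeks CSE 1% overlapped with the control while CSE 5% and CSE 10% lay below it. The fold change with CSE 10% was -0.83 (SE 0.12), -1.75 (SE 0.12) and -1.44 (SE 0.12) at 1, 3 and 5 weeks. MKI67 was higher with CSE 1% at 5 weeks (0.34), did not pass with CSE 5% (-0.16) and was lower with CSE 10% (-0.65). TOP2A was higher with all 3 (0.92, 1.03 and 0.70). CDCA3 was lower with CSE 5% (-0.28) and CSE 10% (-0.87). With CSE 10% against the controls of weeks 1 and 3, CDCA3 was lower (-0.36) and MKI67 did not pass (-0.025).

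**Figure D5:**
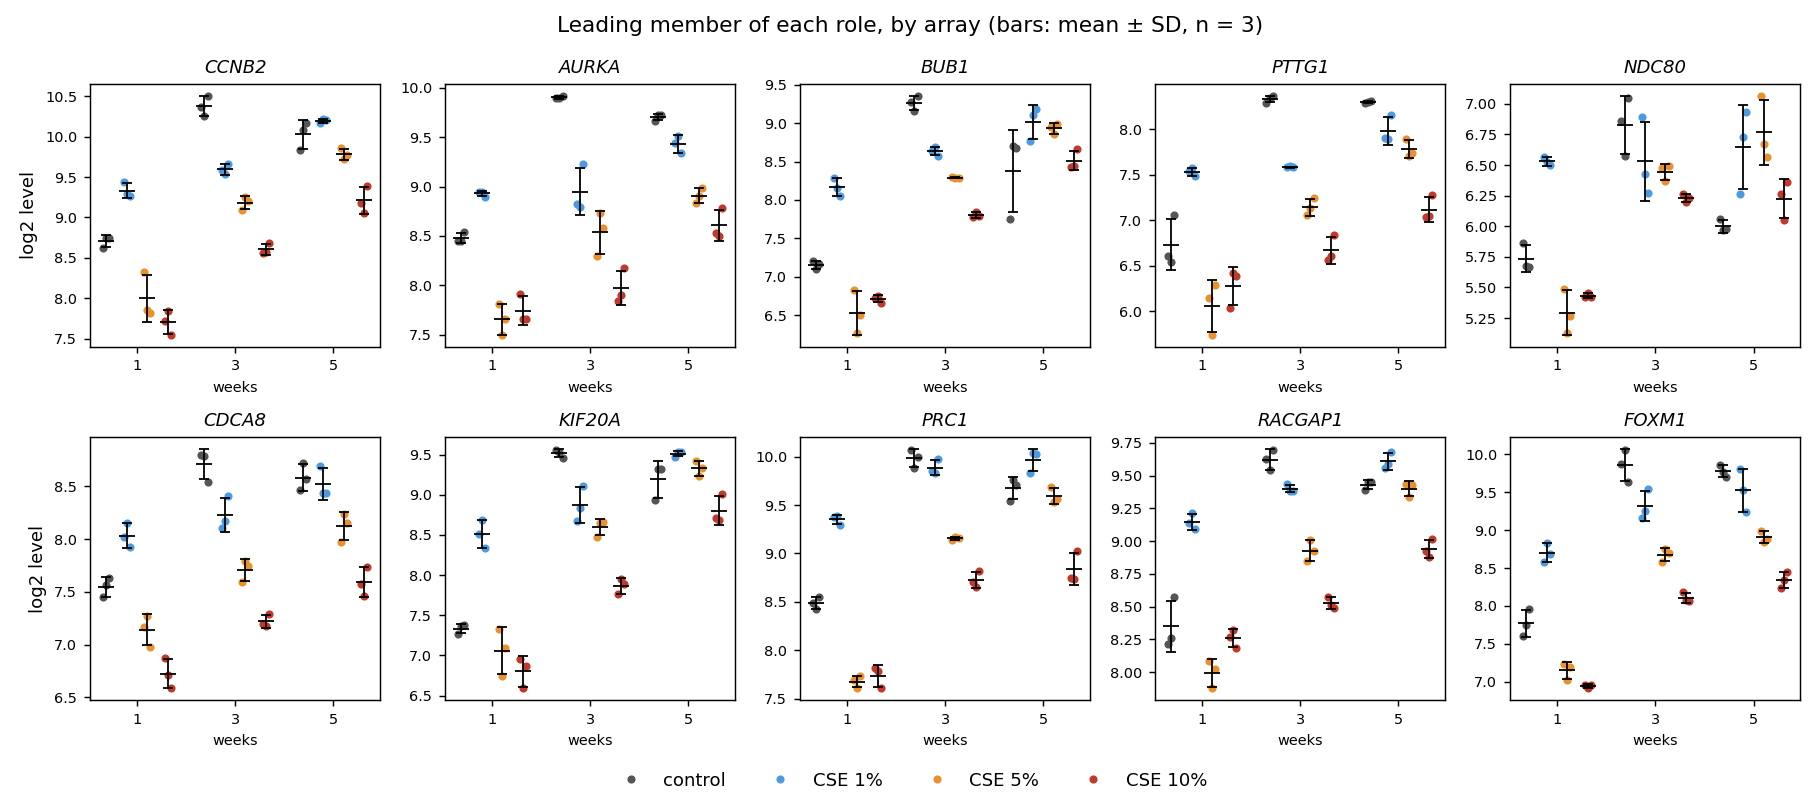
Each panel shows 1 gene, the leading member of its role, with the log2 level of each of the 36 arrays as a point (grey control, blue CSE 1%, orange CSE 5%, red CSE 10%) and the mean ± SD of 3 arrays as a bar, by weeks of culture. Axes differ between panels and do not start at 0. At 3 weeks the means fall from control to CSE 10% in all 10 genes, and at 1 week CSE 1% lies above the control.

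Compared with each other, the extracts differed most between CSE 1% and CSE 5% at 1 week. There 43 of 45 members were lower with CSE 5% and 0 higher (3.77% and 2.97% of all transcript clusters), with a median of -1.44, and all 45 were lower at an unadjusted p under 0.05 and without overlap (12.4% of all lay below without overlap). PRC1 (-1.68, SE 0.082, adjusted p = 9.34e-15) and RACGAP1 (-1.15, SE 0.077, adjusted p = 8.27e-12) led. CSE 10% and CSE 5% differed in 3 members at 1 week. ANLN was higher with CSE 10% (0.81, SE 0.23, adjusted p = 0.0451, where 1.09% of all were higher), and CDCA8 (-0.41, SE 0.11, adjusted p = 0.0244) and CDCA3 (-0.41, SE 0.12, adjusted p = 0.0464) were lower (2.18% of all). RACGAP1 (0.26, SE 0.077) did not pass. This count was 0 without CSE 5% replicate 1 or 2 or CSE 10% replicate 2 or 3, and 1 without CSE 5% replicate 3.

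At 3 weeks 17 members were lower with CSE 5% than with CSE 1% (2.68% of all) and 12 were lower with CSE 10% than with CSE 5% (0.757% of all). PRC1 (-0.73, SE 0.082, adjusted p = 8.56e-07) and RACGAP1 (-0.47, SE 0.077, adjusted p = 0.000178) led the first, KIF20A (-0.73, SE 0.13, adjusted p = 0.00235) and PRC1 (-0.43, SE 0.082, adjusted p = 0.0045) the second. HMMR (0.34, SE 0.34) and ECT2 (0.19, SE 0.23) had positive values between CSE 5% and CSE 1% that did not pass. The 17 became 8 without CSE 1% replicate 3 or without CSE 5% replicate 1. The 12 became 4 with CSE 5% replicate 2 left out, 7 with its replicate 3 left out and 6 with CSE 10% replicate 2 left out. These comparisons do not use the control arrays.

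The order CSE 1% above CSE 5% above CSE 10% held at 5 weeks for the means of 31 of 45 members and for 22.2% of all transcript clusters. At 5 weeks 11 members were lower with CSE 5% than with CSE 1% (1.26% of all) and 17 were lower with CSE 10% than with CSE 5% (1.8% of all). FOXM1 (-0.62, SE 0.12, adjusted p = 0.0016) and AURKA (-0.52, SE 0.11, adjusted p = 0.00488) led the first, PRC1 (-0.76, SE 0.082, adjusted p = 4.65e-07) and RACGAP1 (-0.46, SE 0.077, adjusted p = 0.000398) the second. CENPF (0.61, SE 0.36) and HMMR (0.53, SE 0.34) were positive between CSE 5% and CSE 1% and did not pass. In all 45 members the mean with CSE 10% was below that with CSE 5%, and in 41 the arrays did not overlap (11.6% of all lay below). In none of the 4 comparisons at 3 and 5 weeks was a member higher at the stronger concentration (2.84%, 0.21%, 2.28% and 0.426% of all were), and 0 were at an unadjusted p under 0.05. The 11 became 4 without CSE 1% replicate 1 or 2, 6 without CSE 5% replicate 1 and 5 without CSE 5% replicate 2. The 17 became 8 without CSE 10% replicate 1, 7 without its replicate 2 and 10 without CSE 5% replicate 3.

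The effect of exposure at 5 weeks was set against that at 1 week in 1 contrast per concentration, which takes the 1-week and the 5-week controls into account in full. With CSE 1% the effect was lower at 5 weeks in 16 members and higher in 0 (10.2% and 10.8% of all transcript clusters), also without adjustment. FOXM1 (-1.18, SE 0.17, adjusted p = 1.99e-05) and PTTG1 (-1.11, SE 0.18, adjusted p = 7.75e-05) led, and KIF14 (0.62, SE 0.46) and NUF2 (0.46, SE 0.38) had positive values that did not pass. With CSE 5% it was higher in 31 and lower in 0 (15.1% and 15.7% of all), also without adjustment, led by PBK (2.12, SE 0.27, adjusted p = 3.15e-06) and MELK (1.37, SE 0.19, adjusted p = 1.32e-05), while FOXM1 (-0.25, SE 0.17) and CDCA3 (-0.20, SE 0.16) did not pass. With CSE 10% it was higher in 19 and lower in 7 (13.6% and 16% of all), led by TOP2A (1.55, SE 0.28, adjusted p = 0.000191) and PBK (1.35, SE 0.27, adjusted p = 0.000561) upward and by PTTG1 (-0.73, SE 0.18, adjusted p = 0.00307) and RACGAP1 (-0.40, SE 0.11, adjusted p = 0.00727) downward. With the controls of weeks 1 and 3 in place of those of 5 weeks, the members whose effect differed were 0 with CSE 1%, 41 with CSE 5% and 21 with CSE 10%, and in a separate fit of the groups compared the count with CSE 1% was 9.

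Other genes of the pathway were read from lists drawn up with earlier results of these data known. Of 86 other G2/M and mitosis genes, 48 were higher with CSE 1% at 1 week and 0 lower, where 3.41% of all transcript clusters were higher and 1.9% lower. With CSE 10% at 3 weeks, 62 were lower and 2 higher (12.5% and 14% of all). With CSE 10% at 5 weeks, 29 were higher and 29 lower (21.9% and 39.6% of all), and 8 and 19 against the controls of weeks 1 and 3 (15% and 16% of all). The mitotic spindle gene SPAG5 changed by -0.63, -1.67 and -1.01 with CSE 10% at 1, 3 and 5 weeks. The citron kinase gene CIT changed by -0.75, -1.29 and -0.68, the kinesin KIFC1 by -0.39, -1.21 and -0.70, and the condensin subunit NCAPH by -1.22, -1.36 and -0.63. SHCBP1 fell at 1 and 3 weeks (-0.95 and -1.36) and did not pass at 5 weeks (-0.17).

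Of 29 DNA replication and G1/S genes, 26 were higher with CSE 1% at 1 week (3.41% of all transcript clusters), 27 were lower with CSE 10% at 3 weeks (12.5% of all), and 21 were lower and 0 higher with CSE 10% at 5 weeks (39.6% and 21.9% of all). Their medians in the 3 comparisons were 0.77, -0.96 and -0.67, against 0.80, -1.13 and -0.025 for the mitosis genes. Against the controls of weeks 1 and 3, 11 were lower and 2 higher with CSE 10% at 5 weeks (16% and 15% of all), with a median of -0.21. With CSE 5% at 5 weeks 3 were higher and 14 lower (23% and 40.3% of all), and 13 and 0 against the controls of weeks 1 and 3 (13.1% and 13% of all). TYMS, the thymidylate synthase, had 0.86, -1.17 and -0.45 in the 3 comparisons. The helicase subunit MCM7 had 0.77, -1.0 and -1.12, the PCNA partner PCLAF 1.08, -1.44 and -0.74, the replication factor CDC45 0.91, -1.39 and -1.05, and the ribonucleotide reductase subunit RRM2 1.36, -1.12 and -0.57.

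Among 13 regulators of G2/M transcription, MYBL2, the activator that replaces the DREAM repressors, moved most. It rose with CSE 1% at 1 week (1.14), fell with CSE 10% at 1 and 3 weeks (-0.71 and -1.87) and fell at 5 weeks with CSE 1%, CSE 5% and CSE 10% (-0.47, -1.31 and -2.19). Against the controls of weeks 1 and 3, the 5-week values of MYBL2 were 0.94, which passed upward, 0.10, which did not pass, and -0.78, which passed. RBL2 (p130), the pocket protein of DREAM in resting cells, was higher at 5 weeks with each concentration (0.97, 1.14 and 1.24) and higher with CSE 10% at 3 weeks (0.42). RBL2 was lower in the 5-week than in the 3-week controls (-0.92), and against the controls of weeks 1 and 3 its 5-week values, 0.0076, 0.18 and 0.28, did not pass. RBL1 (p107) rose with CSE 1% at 1 week (0.69), as did NFYA, a subunit of NF-Y (0.47). RBBP4, a core subunit of the complex, was called at 5 weeks only in these 9 comparisons (0.45, 0.54 and 0.50), and against the controls of weeks 1 and 3 its value passed with CSE 5% (0.23) and not with CSE 1% (0.14) or CSE 10% (0.19). Over the list 4 genes were higher and 0 lower with CSE 1% at 1 week (3.41% and 1.9% of all transcript clusters), 1 and 4 with CSE 10% at 3 weeks (14% and 12.5%), and 5 and 4 with CSE 10% at 5 weeks (21.9% and 39.6%). The last counts were 0 and 2 against the controls of weeks 1 and 3 (15% and 16%).

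Of 12 CDK inhibitors and G2 arrest genes, 3 were higher and 0 lower with CSE 10% at 1 week (8.27% and 8.44% of all), 2 and 2 were so at 3 weeks (14% and 12.5%), and 6 and 5 at 5 weeks (21.9% and 39.6%), or 5 and 2 against the controls of weeks 1 and 3 (15% and 16%). PLK2, a stress-induced kinase, rose with CSE 10% at each time (1.12, 1.27 and 1.67). CDKN1A (p21) rose with CSE 10% at 1 week and 5 weeks (0.93 and 0.68), did not pass at 3 weeks (0.35) and fell with CSE 1% at 5 weeks (-0.48), where its value against the controls of weeks 1 and 3, -0.14, did not pass. CDKN1B (p27) rose at 5 weeks with each concentration (0.83, 0.83 and 0.60), and against the controls of weeks 1 and 3 its values, 0.071, 0.072 and -0.17, did not pass. SFN (14-3-3 sigma) rose with CSE 1% at 1 week (0.90) and fell with CSE 10% at 3 and 5 weeks (-0.57 and -0.56). GADD45B fell with all concentrations at 3 and 5 weeks, by 0.72 and 0.75 on the log2 scale with CSE 10%.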

How the data were processed

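RNA of 36 A549 cultures was hybridised to Affymetrix Human Gene 1.0 ST arrays. The authors background-corrected the intensities, used the RMA code of oligo (Bioconductor) and deposited log2 values per transcript cluster, from 2.29 to 14.5. R 2.11.0 stands beside RMA and limma in the processing notes of the submitters. For the array annotation, no genome build was found in the labels or the methods. RMA forces 1 distribution on the probe intensities of all arrays, so a change shared by most transcripts is scaled away.

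Groups followed the sample titles. Of 33297 transcript clusters, 19460 carried 1 gene symbol, 1754 several and 12083 none. All 33297 were fitted with 1 coefficient per group for the 12 groups (limma 3.58.1 in R 4.3.3, residual degrees of freedom 24, prior 3.91). The empirical Bayes step assumed a proportion of 0.01 for B, and p-values were adjusted by Benjamini-Hochberg within each of 21 contrasts. Every adjusted p in the text is limma's. Error bars are the SD of 3 arrays, and errors of fold changes are standard errors (SE). The number of arrays limits the precision. No 2 arrays were alike beyond a correlation of 0.996. The fit was tested on simulated data. Tables were handled in Python 3.11.15 with pandas 2.3.3, and figures drawn with matplotlib 3.10.9.

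The members and lists were chosen with earlier results of these data known. By rule, the text names in each role the member with the smallest p of limma's F test over the 9 comparisons with a control (with its array values), the 3 members with the smallest p in each direction of those comparisons and 2 in other contrasts, passed or not, the members past the study thresholds (with CSE 10% at 3 weeks the 5 largest), and up to 5 genes of each other list by the same F test. The alternatives were a fit per week, a replicate block, the 60% brightest transcript clusters, cyclic loess, centring on 21 housekeeping genes, the mean of a gene's transcript clusters, a trended robust variance, other control arrays at 5 weeks, a limit of 3 on B, and leaving out each array. Protein lengths were not computed here.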

Additional observations from a re-analysis of the deposited data

Results flagged for a closer look

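The effect of exposure differed between 5 weeks and 1 week by a tested contrast, adjusted over all transcript clusters. With CSE 1% it was lower at 5 weeks in 16 members, led by FOXM1 (-1.18) and PTTG1 (-1.11). With CSE 5% it was higher in 31, led by PBK (2.12) and MELK (1.37). With CSE 10% it was higher in 19, led by TOP2A (1.55) and PBK (1.35), and lower in 7, led by PTTG1 (-0.73) and RACGAP1 (-0.399). With the controls of weeks 1 and 3 in place of those of 5 weeks, the members that differed were 0 with CSE 1%, 41 with CSE 5% and 21 with CSE 10%, and in a separate fit of the groups compared the count with CSE 1% was 9. The controls of 1 and 5 weeks enter these values in full, and the members' median differed by 0.91 between those controls. The part of the controls in these differences was not tested. Groups of 3 arrays were not searched for outlying arrays.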

How the results depend on the processing

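Each array left out in turn kept the counts of members higher or lower within 1.5 times in the comparisons with a control, except the 4 lower with CSE 1% at 5 weeks (1 to 4). The totals past the study thresholds ranged from 4 to 9 with CSE 1% and 1 to 7 with CSE 5% at 1 week, 0 to 1 with CSE 1% at 3 weeks, and 2 to 16 with CSE 1% and 3 to 12 with CSE 5% at 5 weeks, where the medians ranged from 0.35 to 0.71 with CSE 1%, 0.23 to 0.57 with CSE 5% and -0.17 to 0.049 with CSE 10%. Between concentrations the members that differed ranged from 0 to 2 (CSE 10% against 5%, 1 week), 8 to 16 and 4 to 12 (CSE 5% against 1% and CSE 10% against 5%, 3 weeks), and 4 to 16 and 7 to 18 (5 weeks). A separate fit for each week gave 1 for CSE 10% against 5% at 1 week, 3 and 6 for CSE 5% against 1% and CSE 10% against 5% at 5 weeks, and 2 and 3 past the study thresholds with CSE 1% and CSE 5% at 5 weeks. A separate fit of the groups compared gave 9 for the 5-week against the 1-week effect of CSE 1%. Replicate numbers did not pair the arrays: the deviations of same-numbered arrays had a median r of -0.0054 (198 pairs), those of others 0.0029 (396 pairs), and every pair of 1 of 18 comparisons was over 0.1. The replicate block gave 1 member for CSE 10% against 5% at 1 week and moved no other count over 1.5 times. Centred on housekeeping genes, which shifted by -0.11, -0.14 and -0.16 at 3 weeks, the total past the study thresholds with CSE 1% at 1 week was 4 and the median with CSE 10% at 3 weeks -0.97. With B above 3 the totals were 2 with CSE 5% at 1 week, and 4 and 5 with CSE 1% and CSE 5% at 5 weeks. Cyclic loess, the brightest 60% of transcript clusters, the mean of a gene's transcript clusters and the trended robust variance moved no count over 1.5 times. With the controls of weeks 1 and 3 in place of those of 5 weeks, 0, 1 and 13 members were lower with CSE 1%, 5% and 10%, 2 were higher with CSE 10%, the totals past the study thresholds were 2, 0 and 0, and the 5-week effect of CSE 1% differed from that at 1 week in 0 members. The sign then turned with CSE 1% for PLK1 (0.48), AURKA (0.24), CDC20 (0.44), PTTG1 (0.45), AURKB (0.38), BIRC5 (0.33), CDCA8 (0.39) and FOXM1 (0.71), with CSE 5% for CCNB1 (0.19), UBE2C (0.16), PTTG1 (0.25), AURKB (0.019), BIRC5 (0.10), TPX2 (0.22), PRC1 (0.36), RACGAP1 (0.41), MKI67 (0.46), FOXM1 (0.093) and CDCA3 (0.23), and with CSE 10% for KIF20A (0.38). The controls of 3 weeks alone and of 1 week alone were chosen after seeing the data. With those of 3 weeks, 0, 0 and 0 members were higher and 1 was lower with CSE 1%, 36 with CSE 10%, with medians of -0.24, -0.35 and -0.86. With those of 1 week, 0, 0 and 0 were lower and 44 and 34 higher with CSE 5% and CSE 10%, with medians of 1.37, 1.14 and 0.67. The cause was not tested for any of these shifts.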
